A study of Homo sapiens with 6 samples.

Results

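The tubulin genes described here are 4 alpha-tubulin genes (TUBA1A, TUBA1B, TUBA1C and TUBA4A) and 6 beta-tubulin genes (TUBB, TUBB2A, TUBB2B, TUBB3, TUBB4B and TUBB6). They were taken by gene name from a table of read counts for 60545 genes, which held each name once. All 10 were among the 15773 genes that passed the filter on low counts. The libraries came from PC3, a human prostate cancer cell line derived from a bone metastasis, grown in RPMI-1640 medium with fetal bovine serum and antibiotics. Of the 6 libraries, 3 were from cells given RSM3, a peptide by the series title, and 3 were from Control cells. Dose, duration and the vehicle of the Control cells are not stated in the labels. The labels do not say that replicates were separate cultures, so the spread behind each p-value may be technical rather than biological.

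Microtubules are polymers of alpha-beta tubulin dimers that form the mitotic spindle and the tracks for intracellular transport. Vertebrates make several isotypes of each subunit from separate genes, which differ mainly in a short acidic tail at the carboxyl end, where enzymes add or remove residues. Cells also adjust tubulin mRNA to the pool of free dimers: as a tubulin chain emerges from the ribosome, the factor TTC5 binds its first residues, and the CCR4-NOT deadenylase complex then degrades the mRNA. The isotype mix, TUBB3 above all, has been studied in cancer cells because several drugs bind beta-tubulin.

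Libraries held 14091359 to 18594251 counts. A pair of features set some of them apart. In RSM3 replicate 1 the level of a gene relative to the 6-library mean correlated with its GC content across genes (Spearman rho 0.418). The rho was −0.321 and −0.289 in RSM3 replicates 2 and 3, and 0.139, 0.158 and −0.205 in Control replicates 1, 2 and 3. Control replicates 1 and 2 had 103 and 111 CPM, or counts per 1e+06 counts, of the tropomyosin gene TPM1, and the remaining libraries 29.4 to 31.8 CPM. Results are therefore also given without RSM3 replicate 1. The RSM3 libraries that remain in that fit are those with the lowest rho, so it is not free of base-composition differences. Of 6 epithelial markers, the keratins KRT8, KRT18, KRT19 and KRT7 had Control means of 279, 202, 720 and 66.4 CPM, whereas CDH1 and EPCAM were low at 5.90 and 8.96 CPM. KRT7 rose to 101 CPM in RSM3 (edgeR adjusted p = 0.0233), and the other 5 did not pass. KLK2, a prostate luminal gene, had no count, and KLK3 had 1 count in all. Leukocyte markers summed to 0.624 to 2.95 CPM per library, with 4 of 10 at 0 throughout. Of 10 neuronal markers, 4 passed the filter, and NEFL, a neurofilament gene, made up most of the sum of all 10, 424 to 557 CPM. Fibroblast and endothelial markers summed to 306 to 345 CPM in Control and 221 to 261 CPM in RSM3, a shift whose part in the tubulin values was not tested. KDR and COL1A1 made up most of that sum, whereas COL1A2, DCN, LUM, PDGFRB, CDH5 and VWF had at most 10 counts in any library. KDR was called lower, from a mean of 208 CPM in Control to 143 CPM in RSM3 (edgeR adjusted p = 0.00977). COL1A1 had means of 88.3 and 73.5 CPM and did not pass. TPM1 and these sums are scaled by library total alone.

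The coding sequences of the 10 genes were read from one principal GENCODE 29 transcript each. Their starts are shown because they encode the residues read in autoregulation. The first 4 codons encode methionine, arginine and glutamate, followed by cysteine in the alpha genes and isoleucine in the beta genes. Capitals mark that last codon.
TUBA1A, TUBA1B and TUBA1C: atgcgtgagTGC
TUBA4A: atgcgtgaaTGC
TUBB and TUBB4B: atgagggaaATC
TUBB2A: atgcgcgagATC
TUBB2B: atgcgtgagATC
TUBB3 and TUBB6: atgagggagATC

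The last 15 codons and the stop codon are shown for 8 of the genes because the tail is where isotypes differ most. Capitals mark the codon of the final residue.
TUBA1C: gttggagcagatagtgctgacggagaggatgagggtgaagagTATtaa
TUBA4A: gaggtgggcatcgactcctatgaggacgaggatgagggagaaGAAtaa
TUBB: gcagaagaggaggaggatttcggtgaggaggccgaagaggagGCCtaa
TUBB2A: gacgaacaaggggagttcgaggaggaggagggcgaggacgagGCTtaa
TUBB2B: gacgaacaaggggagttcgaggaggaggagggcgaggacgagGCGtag
TUBB3: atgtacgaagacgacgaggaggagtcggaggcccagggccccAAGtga
TUBB4B: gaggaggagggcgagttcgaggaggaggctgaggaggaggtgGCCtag
TUBB6: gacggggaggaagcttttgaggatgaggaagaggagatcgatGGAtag

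The final codon of TUBA1C encodes tyrosine, the residue that vasohibins remove and tubulin tyrosine ligase (TTL) restores, whereas TUBA4A ends in glutamate. Of the last 15 residues, 7 are acidic in TUBA1C, 9 in TUBA4A and 10 in every beta gene except TUBB3, which has 7 and ends in lysine.

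Likeness between the genes also bears on how reads could be counted. TUBA1A and TUBA1B shared 97.2% of coding bases and 99.6% of residues, and TUBA1B and TUBA1C shared 96.8% and 98.0%. TUBB2A and TUBB2B shared 98.1% of coding bases. Over whole transcripts, 19.1% of all 150-base windows of TUBA1B, the length of 1 read, occurred exactly in TUBA1A or TUBA1C. The share was 6.91% for TUBA1A, 6.77% for TUBA1C, 49.4% for TUBB2A and 39.4% for TUBB2B. TUBA4A, TUBB4B and TUBB6 shared no window with any other annotated gene, and TUBB shared 2.50% with the pseudogene TUBBP1. TUBB3 shared 88.7% of its windows with AC092143.1, an annotated gene that overlaps it on the same strand and is listed at 0 in all 6 libraries. How multiply mapped or ambiguous reads were treated is not given in the sources used here, so the counts of TUBB3, TUBB2A and TUBB2B in particular are uncertain.

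On GRCh38 (GENCODE 29), TUBA1A (chr12:49184796-49189324, minus strand), TUBA1B (chr12:49127782-49131397, minus) and TUBA1C (chr12:49188736-49274603, plus) lie close together. TUBA4A lies at chr2:219249711-219278170 on the minus strand. TUBB (chr6:30720201-30725426, plus), TUBB2A (chr6:3153669-3157526, minus) and TUBB2B (chr6:3224261-3231730, minus) share chromosome 6. TUBB3 lies at chr16:89921392-89938761, TUBB4B at chr9:137241213-137243707 and TUBB6 at chr18:12307669-12344320, all on the plus strand. Exons of TUBA1A overlap exons of TUBA1C on the opposite strand. Exons of TUBB6 likewise overlap AFG3L2, which had 2064 to 2738 counts per library, those of TUBA4A overlap STK16 (461 to 655 counts) and those of TUBB2B overlap PSMG4 (285 to 393 counts). The libraries mark strand, but the strand setting of the counting is not given in the sources used here.

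TUBB was the most abundant tubulin mRNA. To compare levels between genes, CPM scaled by the trimmed mean of M values (TMM) was divided by exonic length in kilobases. In Control cells, as mean ± SD with n = 3 in each case, this level was 491 ± 16.0 CPM per kilobase for TUBB, 213 ± 5.54 for TUBB4B, 210 ± 8.02 for TUBA1C and 143 ± 0.665 for TUBA1B. TUBA1A followed at 53.3 ± 6.57 CPM per kilobase, then TUBA4A at 16.0 ± 0.961, TUBB6 at 10.5 ± 0.792 and TUBB2A at 10.2 ± 0.769. TUBB3, with 1.05 ± 0.0506, and TUBB2B, with 0.790 ± 0.143 CPM per kilobase, were lowest. In this order, TUBB4B and TUBA1C did not differ beyond their spread, nor did TUBB6 and TUBB2A. Among 12899 annotated protein-coding genes tested, ranked by the mean of all 6 libraries, TUBB ranked 29, TUBB4B 92, TUBA1C 105 and TUBA1B 132, whereas TUBB3 ranked 10892 and TUBB2B 11140.

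The exonic length counts the exons of all annotated transcripts. Per kilobase of the principal transcript alone, a scale added after the data had been seen, the Control levels were 617 for TUBB, 324 for TUBA1C, 315 for TUBA1B and 274 for TUBB4B. The order of these last 3 genes thus depended on the length used, and TUBB was the highest on both scales.

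**Figure D1:**
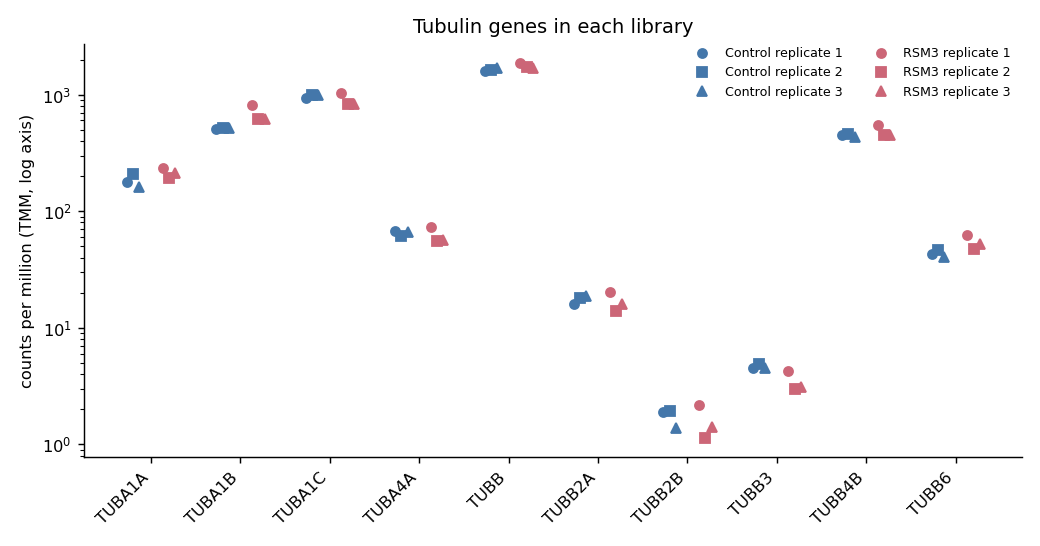
TMM-scaled CPM (log axis) of the 10 tubulin genes, 1 point per library, blue for Control and red for RSM3, with the marker shape giving the replicate number. TUBB lies between 1597 and 1877 CPM and TUBB2B between 1.12 and 2.18 CPM, and RSM3 replicate 1 (red circle) is the highest library for 9 of the 10 genes.

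The comparison of RSM3 with Control asks whether the peptide changes these transcripts. TUBA1B was the 1 member that rose, none fell and 9 did not pass at an adjusted p under 0.05 (quasi-likelihood test in edgeR, Benjamini-Hochberg adjustment over all genes tested). Among all 15773 genes, 3.09% were called higher and 1.1% lower, so that 73.7% of all calls were rises. With scaling by library size alone, 308 genes rose and 254 fell, or 54.8% rises, and TUBA1B was still the 1 member called. At an unadjusted p under 0.05, 3 members were higher and 0 were lower, against 17.8% of all genes tested in either direction. DESeq2 and limma voom also called 1 rise and 0 falls. The log2 fold changes ran from −0.43 to 0.41, 5 above zero and 5 below, with a median of 0.01 against −0.0048 over all genes tested. The groups did not overlap for 4 members (TUBA1B, TUBB, TUBB3 and TUBB6), against 23.9% of all genes tested. In bulk RNA, fewer cells of a kind and less RNA per cell cannot be told apart.

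TUBA1B (ENSG00000123416), which encodes one of the main alpha-tubulins of dividing cells, stood at 509, 514 and 513 CPM in Control replicates 1, 2 and 3. It stood at 809, 615 and 621 CPM in RSM3 replicates 1, 2 and 3. Every RSM3 library lay above every Control library, and RSM3 replicate 1 lay far above the rest. The mean rose by 33.1%, from 512 ± 2.38 to 682 ± 110 CPM (SD, n = 3). The log2 fold change and its SE were 0.41 ± 0.10, at an adjusted p = 0.0365 by edgeR. Without RSM3 replicate 1 the log2 fold change was 0.27, with an edgeR adjusted p = 0.000192. The call was lost without Control replicates 1, 2 or 3 or RSM3 replicate 3, at log2 fold changes of 0.41, 0.42, 0.41 and 0.48 and edgeR adjusted p = 0.162, 0.160, 0.123 and 0.0604. It was also lost with a term for Control replicates 1 and 2, with 0.41 on the log2 scale (adjusted p = 0.342). There, RSM3 is set against Control replicate 3 only, whose variance is taken to be that of the RSM3 libraries and of the Control pair.

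TUBA1C (ENSG00000167553), the most abundant alpha member by CPM, stood at 929, 996 and 989 CPM in the Control libraries. In RSM3 replicates 1, 2 and 3 it stood at 1042, 829 and 828 CPM. RSM3 replicate 1 was thus the highest of all libraries and the other RSM3 libraries the lowest. The log2 fold change was −0.11, with a 95% interval of −0.31 to 0.09 (edgeR adjusted p = 0.610). Without RSM3 replicate 1 it was −0.23, and TUBA1C was then called lower (edgeR adjusted p = 0.00202). In that fit 14.6% of all genes tested were called in either direction, and it was the 1 of 15 other settings that called TUBA1C. With an offset for GC content and length the log2 fold change was −0.10 (edgeR adjusted p = 0.426).

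TUBA1A, an alpha-tubulin best known from the developing brain, had 179, 206 and 162 CPM in the Control libraries and 233, 191 and 213 CPM in the RSM3 libraries. The groups overlapped, and its log2 fold change was 0.22 with an interval of 0.00 to 0.44 (edgeR adjusted p = 0.275). TUBA4A, the alpha-tubulin whose gene encodes no final tyrosine, had 68.2, 60.8 and 66.8 CPM in the Control libraries and 73.5, 55.8 and 56.5 CPM in the RSM3 libraries. As for TUBA1C, RSM3 replicate 1 was the highest library and the other RSM3 libraries the lowest. Its log2 fold change was −0.08, from −0.32 to 0.16 (edgeR adjusted p = 0.780), and −0.22 without RSM3 replicate 1 (adjusted p = 0.0547).

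**Figure D2:**
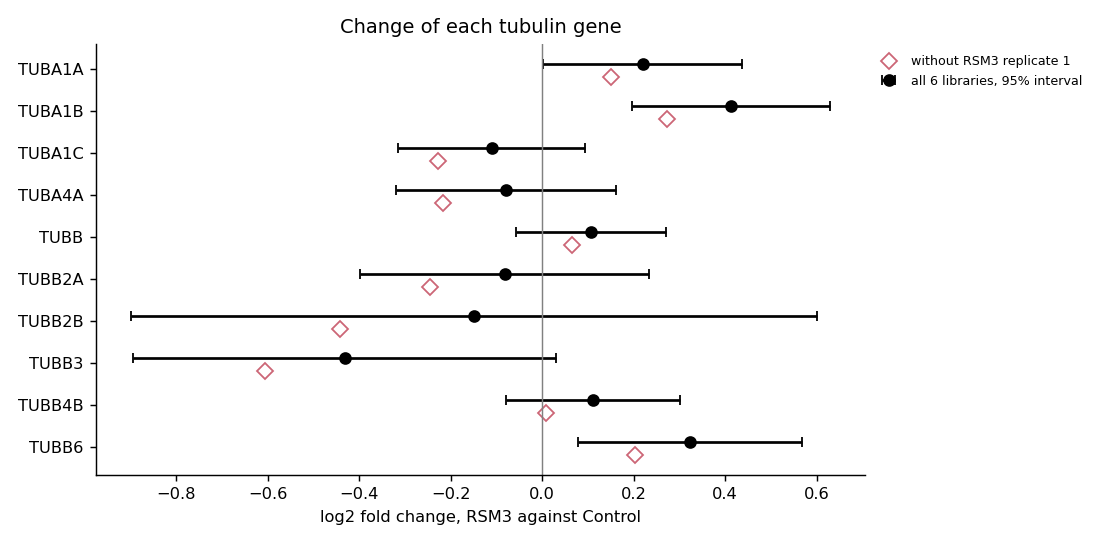
Log2 fold change of RSM3 against Control for each tubulin gene. Filled circles give the fit to all 6 libraries with its 95% interval, open diamonds the fit without RSM3 replicate 1. TUBA1B, at 0.41, passed the adjusted threshold, and each diamond lies to the left of its circle.

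The balance between TUBA1B and TUBA1C did not overlap between the groups. The ratio of TUBA1B counts to TUBA1C counts, which does not depend on how libraries are scaled, was 0.549, 0.516 and 0.518 in Control replicates 1, 2 and 3. In RSM3 replicates 1, 2 and 3 it was 0.776, 0.742 and 0.749. RSM3 replicate 1, which stood apart in the level of each gene, was close to the other RSM3 libraries in this ratio. The mean ratio was 0.528 ± 0.0182 in Control and 0.756 ± 0.0180 in RSM3 (SD, n = 3), a difference of 0.52 in the log2 ratio. The ratio was chosen after the values had been seen, and no test was made of it.

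As a share of the summed level per kilobase of the 4 alpha genes, TUBA1B made up 33.9 ± 0.751% in Control and 41.2 ± 0.832% in RSM3. TUBA1C made up 49.7 ± 1.05% and 42.1 ± 0.453%. TUBA1A held 12.6 ± 1.32% and 13.5 ± 0.961%, which overlapped between the groups, and TUBA4A 3.80 ± 0.324% and 3.28 ± 0.0659%. With principal transcript lengths the shares of TUBA1B were 41.2% and 48.7%, and those of TUBA1C 42.4% and 35.0%. The sum of TUBA1A, TUBA1B and TUBA1C, which is not affected by how reads were split among them, was 1617, 1717 and 1664 CPM in Control. It was 2084, 1636 and 1663 CPM in RSM3, so that apart from RSM3 replicate 1 the groups overlapped.

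**Figure D3:**
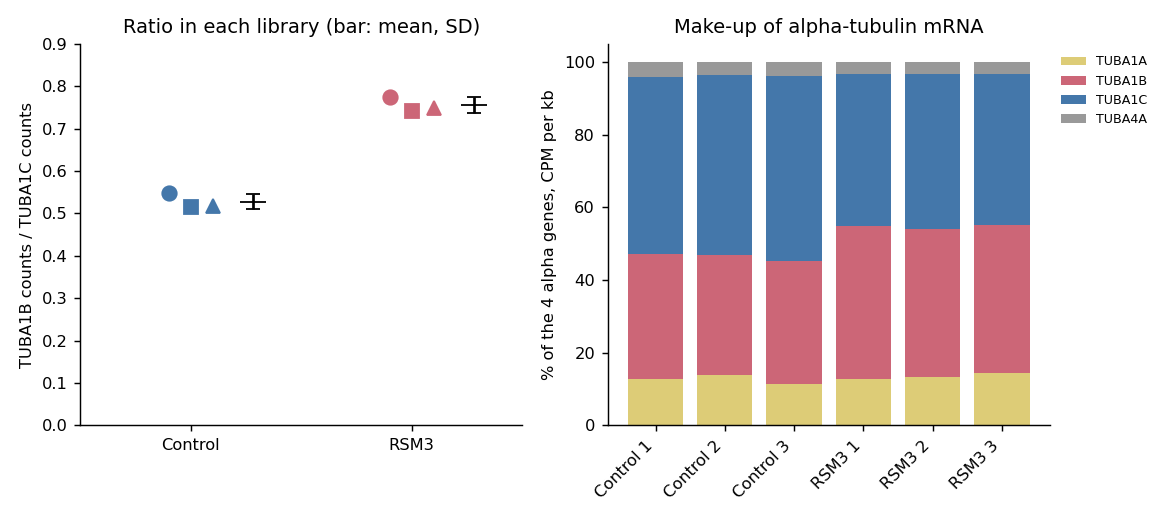
Left, TUBA1B counts divided by TUBA1C counts in each library, with mean and SD beside the points, from 0.516 to 0.549 in Control and 0.742 to 0.776 in RSM3. Right, share of each alpha gene in the summed CPM per kilobase of the 4 alpha genes in each library, where TUBA1B takes about 33 to 35% in Control and 41 to 42% in RSM3.

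No beta gene passed the test. TUBB, the main beta-tubulin of proliferating cells, had 1597, 1643 and 1704 CPM in the Control libraries and 1877, 1736 and 1708 CPM in the RSM3 libraries. The groups did not overlap, but the nearest libraries differed by little, and the log2 fold change was 0.11 with an interval of −0.06 to 0.27 (edgeR adjusted p = 0.525), or 0.06 without RSM3 replicate 1. TUBB4B, another widely expressed beta-tubulin that is also found in cilia, had 451, 459 and 436 CPM in the Control libraries and 552, 451 and 451 CPM in the RSM3 libraries. Outside RSM3 replicate 1 its groups overlapped, with a log2 fold change of 0.11 (−0.08 to 0.30; adjusted p = 0.576) that became 0.01 without that library.

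TUBB6, a divergent beta-tubulin, had 42.6, 46.5 and 40.1 CPM in the Control libraries and 62.8, 46.9 and 52.2 CPM in the RSM3 libraries. Its groups did not overlap, though RSM3 replicate 2 lay next to the highest Control library. The log2 fold change was 0.32, from 0.08 to 0.57 (edgeR adjusted p = 0.146). Without RSM3 replicate 1 it was 0.20 (adjusted p = 0.119), and with an offset for GC content and length TUBB6 was called higher, at 0.35 (adjusted p = 0.00766). The offset was the 1 of 15 other settings that called TUBB6, and with it 1629 of 15620 genes tested were called.

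TUBB3, the beta-tubulin typical of neurons, was low. It had 77, 86 and 85 counts in Control and 57, 48 and 48 in RSM3, or 4.55, 4.90 and 4.48 CPM against 4.29, 2.99 and 3.09 CPM. All RSM3 libraries lay below all Control libraries. Its log2 fold change was −0.43, with an interval of −0.89 to 0.03 (edgeR adjusted p = 0.321), and −0.61 without RSM3 replicate 1 (adjusted p = 0.0943).

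TUBB2A and TUBB2B, near-identical beta-tubulins known from brain, overlapped between the groups. By level per kilobase TUBB2A ranked 4580 among the 12899 protein-coding genes, whereas TUBB2B was low, at rank 11140. TUBB2A had 16.1, 18.0 and 18.6 CPM in the Control libraries and 20.3, 13.8 and 15.9 CPM in the RSM3 libraries (log2 fold change −0.08, from −0.40 to 0.23; edgeR adjusted p = 0.833). TUBB2B had 18 to 34 counts per library, and its interval of −0.90 to 0.60 shows how little can be detected at this depth. Their sum averaged 19.3 ± 1.16 CPM without the peptide and 18.2 ± 3.89 CPM with it (SD, n = 3).

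Together, the 10 genes took 0.386%, 0.402% and 0.401% of all counts in Control and 0.441%, 0.394% and 0.393% in RSM3, with RSM3 replicate 1 highest and the other RSM3 libraries inside the Control range. The ratio of summed alpha CPM to summed beta CPM was 0.797, 0.818 and 0.785 in Control and 0.856, 0.751 and 0.770 in RSM3. RSM3 replicate 1 was the highest of the 6 libraries for 9 of the 10 genes, TUBB3 being the exception. That library was the highest for 25.8% of all genes tested, and for 43.7% of those with a GC content at or above 51.6%, the lowest among the members. The members' transcripts had a GC content of 51.6% to 61.2%, at percentiles 61.4 to 89.8 of the genes tested. The part of base composition in these values was not tested beyond the offset for GC content and length, under which TUBA1B was higher by 0.42 on the log2 scale (edgeR adjusted p = 0.000519).

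Other genes of tubulin biology were counted from lists, with the same fit. Of 10 further alpha, beta, delta and epsilon tubulin genes, 5 passed the filter and none was called, with 0 at an unadjusted p under 0.05 (median log2 fold change −0.03). The most abundant was TUBB4A, a beta-tubulin known from brain, with 41.7, 39.4 and 34.6 CPM in Control replicates 1, 2 and 3 and 53.1, 30.5 and 30.0 CPM in the RSM3 ones. RSM3 replicate 1 was again the highest library and the others the lowest, and without it TUBB4A was called lower, by −0.35 on the log2 scale (edgeR adjusted p = 0.0130). TUBD1 followed at 10.3 ± 0.829 and 11.8 ± 2.19 CPM (SD, n = 3).

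The gamma-tubulin ring complex, which nucleates microtubules, had 11 measured members, of which 1 rose and none fell (median 0.17). Of all genes tested, 4.2% were called in either direction. Of the 11, 3 had an unadjusted p under 0.05, against 17.8% of all genes. NEDD1, which brings the complex to the centrosome, rose from 97.9 ± 4.02 to 142 ± 23.5 CPM, or by 0.54 ± 0.11 (SE) on the log2 scale at an edgeR adjusted p = 0.0142. That call was lost when Control replicate 1, Control replicate 2, RSM3 replicate 2 or RSM3 replicate 3 was left out, at log2 fold changes of 0.54, 0.51, 0.48 and 0.47. It was lost too with the term for Control replicates 1 and 2. TUBG1, a gamma-tubulin gene, stood at 68.2 ± 3.35 and 91.8 ± 17.5 CPM and did not pass (edgeR adjusted p = 0.0620). TUBG2, the other gamma-tubulin gene of the list, stood at 14.5 ± 0.288 and 12.4 ± 2.42 CPM. Its log2 fold change was −0.23 (edgeR adjusted p = 0.466). TUBG1 was called higher with DESeq2, with the replicate block, with no filter, with the GC and length offset, without RSM3 replicate 1 and without RSM3 replicate 2, at log2 fold changes of 0.27 to 0.54. The list thus had 2 risers with DESeq2, with the block and with no filter, 3 without RSM3 replicate 1 and 4 with the offset. Of all genes tested, 896 of 15773 were called in either direction with DESeq2, 653 of 15773 with the block and 1083 of 32250 with no filter. The share was 14.6% without RSM3 replicate 1, and 1629 of 15620 were called with the offset.

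Folding of tubulin needs prefoldin, the chaperonin CCT and the cofactors TBCA to TBCE. None of 21 such genes was called by edgeR, 3 had an unadjusted p under 0.05 (17.8% of all genes did), and the median was 0.08. Without RSM3 replicate 1, 2 of them rose and 0 fell, against 14.6% of all genes called in either direction. Control and RSM3 means were 490 ± 9.18 and 530 ± 31.9 CPM for CCT5, and 458 ± 7.67 and 445 ± 19.4 CPM for CCT3. Of 12 genes of tubulin mRNA autoregulation, none was called and 0 had an unadjusted p under 0.05 (median 0.05). CNOT1, the scaffold of the CCR4-NOT complex, stood at 286 ± 3.09 and 301 ± 7.10 CPM, and CNOT9 at 141 ± 2.94 and 157 ± 6.86 CPM. Without RSM3 replicate 1, CNOT9 was called higher, by 0.17 on the log2 scale (edgeR adjusted p = 0.0433), the only call on this list. TTC5, which reads the nascent tubulin residues and was named here for that role after its values had been seen, stood at 13.1 ± 2.84 and 11.2 ± 0.453 CPM (edgeR adjusted p = 0.531).

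None of 23 tested tubulin-modifying enzyme genes was called, and 3 had an unadjusted p under 0.05, again beside 17.8% of all genes (median −0.01). TTL had means of 152 ± 5.47 and 151 ± 1.35 CPM, and TPGS2, a subunit of a tubulin polyglutamylase, of 86.4 ± 4.13 and 103 ± 6.21 CPM (edgeR adjusted p = 0.108). Without RSM3 replicate 1, 1 gene of this list rose and 1 fell, against 14.6% of all genes called in either direction. The riser was TPGS2, by 0.23 on the log2 scale (edgeR adjusted p = 0.0181). TPGS2 was also called higher with the GC and length offset, by 0.29 (edgeR adjusted p = 0.00863).

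Among 37 tested genes of microtubule-binding and severing proteins, 2 rose, 2 fell and 33 did not pass (median −0.04). Of all genes tested, 4.2% were called in either direction. Of the 37, 8 had an unadjusted p under 0.05, against 17.8% of all genes. STMN1, which encodes stathmin, a protein that sequesters tubulin dimers, rose by 0.64 ± 0.09 (log2, SE) from 109 ± 2.73 to 170 ± 18.1 CPM, at an edgeR adjusted p = 0.00139. TPX2, a spindle assembly factor, rose from 139 ± 9.04 to 193 ± 14.5 CPM (adjusted p = 0.00675). Of the 15 other settings, STMN1 and TPX2 each lost the call in 1, the fit with a term for Control replicates 1 and 2, at log2 fold changes of 0.62 and 0.59. MAP1A, a neuronal microtubule-associated protein gene, fell from 43.2 ± 1.22 to 30.9 ± 3.58 CPM (−0.48 on the log2 scale, edgeR adjusted p = 0.0194). MAP9, a spindle-associated one, fell from 29.7 ± 4.60 to 20.1 ± 2.01 CPM (−0.56, adjusted p = 0.0293). MAP1A and MAP9 each lost the call in 5 of the 6 fits that left out 1 library, the exception being RSM3 replicate 1, and MAP1A also with that term. In those 5 fits the log2 fold changes were −0.51 to −0.43 for MAP1A and −0.63 to −0.42 for MAP9. Over these 6 lists, 5 of 109 tested genes (4.59%) were called, against 4.2% of all genes tested. Without RSM3 replicate 1, 15 (13.8%) were called, against 14.6% of all genes, so neither share stood far from its background.

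**Figure D4:**
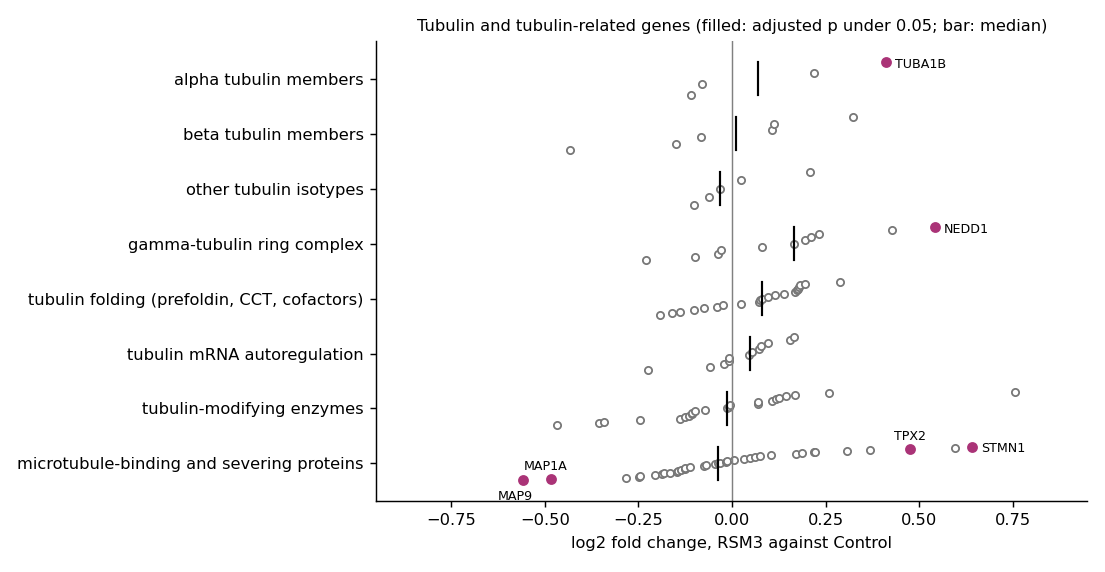
Log2 fold change of every tested gene of the tubulin genes and the 6 lists around them, 1 point per gene, filled where the adjusted p was under 0.05, with a bar at each list's median. The medians lie between −0.04 and 0.17, and TUBA1B, NEDD1, TPX2, STMN1, MAP1A and MAP9 are the filled points.

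For the most abundant alpha and beta gene by CPM, the 5 protein-coding genes with the most similar log2 CPM over the 6 libraries were sought among 10647 with a mean of at least 5 CPM. For TUBA1C, 4 of these were PRKD2, PXN, DCTD and MYBBP1A, with Pearson correlations of 0.989 to 0.999. For TUBB they were TAP1, CHD6, ZNF641, MTX1 and LAP3, at 0.986 to 0.992. All values share the same 6 libraries and their base-composition differences, so the correlations are descriptions. Between members, the correlation over the 6 libraries was 0.08 for TUBA1B with TUBA1C, 0.92 for TUBA1B with TUBB and 0.93 for TUBA1B with TUBB6.

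Tubulin pseudogenes received few counts. Of 52 in the table, 18 had any count, and they summed to 89 to 141 counts per library, or 0.137 to 0.219 per 100 counts of the 10 genes. TUBA5P, with 41 to 65 counts, and TUBBP1, with 6 to 38, held most of them.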

How the data were processed

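RNA was measured by sequencing of poly(A) RNA in 6 libraries, 3 Control and 3 RSM3. The authors deposited whole-number read counts per gene, raw and not normalised. Tools named in the submitters' processing notes are STAR (2.7.1a), fastp, DESeq2 and featureCounts, on build hg38, without their roles. Groups and replicate numbers came from sample titles. Genes were filtered with filterByExpr (minimum count 10) and tested in edgeR (4.0.16, R 4.3.3) by its quasi-likelihood test on all 6 libraries, with TMM factors, robust dispersions and no covariate. P-values were adjusted over all 15773 genes tested, and SE and intervals derived from the F statistic. The script was checked on simulated counts. Coordinates, lengths, GC content and coding sequences came from GENCODE 29 (GRCh38), which covered 99.0% of tested genes. No replicate pair matched within sampling noise (chi-square per degree of freedom 3.29 to 19.5). Each library's total of 14091359 to 18594251 counts limits precision for low genes.

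The members and gene lists were chosen with earlier results of these data known. The named genes are all members, of each list the called genes with the smallest adjusted p (at most 4) or otherwise the 2 most abundant, and the 5 genes most alike in pattern. TUBG1, TUBG2, TTC5, KDR and COL1A1 were named after their values had been seen. Some sequences and genes are not reported here. Alternatives were no filter or a minimum of 1 CPM in 3 libraries, scaling by library totals or by DESeq2 size factors, limma voom (3.58.1) and DESeq2 (1.42.0) as tests, summed copies, the principal transcript's length, the replicate number as a block, an offset for GC content and length (loess, span 0.5), a term for Control replicates 1 and 2, and leaving out each library.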

Additional observations from a re-analysis of the deposited data

How the results depend on the processing

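TUBA1B kept its sign in all 15 other settings and its call in 10, with log2 fold changes of 0.27 to 0.48, and the direction of TUBA1A, TUBA1C, TUBA4A, TUBB, TUBB3, TUBB4B and TUBB6 was the same in all 15. TUBB2A changed sign in 1 and TUBB2B in 2, never past the threshold. The count of members that rose was 1 except for 2 with the GC and length offset, where TUBB6 was added, and 0 with the term for Control replicates 1 and 2. Leaving out 1 library gave 0 to 1 members that rose and 0 to 1 that fell. All genes called numbered 662, 1083 with no filter, 1629 with the offset, 118 with the term and 214 to 2393 when 1 library was left out. Of the genes on the 6 lists, 5 were called, 11 with the offset, 1 with the term and 2 to 15 with 1 library left out. Why these counts moved was not tested. With a replicate block TUBA1B was higher by 0.40 on the log2 scale (edgeR adjusted p = 0.0309) and 653 genes were called. Same-numbered libraries did not deviate together (r = 0.03, −0.02 and 0.04), so the numbers were not taken as pairs. Summed with its copies TUBA1A and TUBA1C, the TUBA1B value of 0.41 became 0.11, as a value with no test. Low counts limit TUBB2B and TUBB3.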
